A study of Homo sapiens with 6 samples.

Results

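The genes described here are doublecortin, its kinase relatives, the neuronal microtubule-associated proteins MAP2, tau and MAP1B, and the stathmins, in BE-(2)-C cells treated with ELF4 siRNA or with control siRNA. They are the 10 rows of the deposited table whose name is exactly DCX, DCLK1, DCLK2, MAP2, MAPT, MAP1B, STMN1, STMN2, STMN3 or STMN4, out of 26906 rows. All 10 had a row of their own, none occurred in a row that joins several gene names, and all 10 passed the filter on low values. BE-(2)-C is an established line of human neuroblastoma cells in which MYCN is amplified, and the series title links ELF4, an ETS family transcription factor, to growth and to the undifferentiated state of such cells. The libraries were made from this 1 line, 3 treated with ELF4 siRNA and 3 with control siRNA, each from poly-A selected RNA taken 48 hours after treatment.

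Microtubules are polymers of tubulin that grow and shrink at their ends, and a neurite can extend only where they are stabilised and bundled. Doublecortin and its kinase relatives bind between the protofilaments of the polymer, and MAP2, tau and MAP1B run along its surface. Stathmins act in the opposite sense, since they bind free tubulin and promote shrinkage until phosphorylation releases it. Doublecortin marks young migrating neurons, MAP2 marks dendrites and tau marks axons. STMN2, STMN3 and STMN4 are the neuronal stathmins, while STMN1 is also found in dividing cells of many kinds.

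ELF4 itself was low in every ELF4 siRNA library. Its normalised read count was 5.51, 5.61 and 3.10 in ELF4 siRNA replicates 1, 2 and 3, against 42.4, 38.8 and 46.8 in control siRNA replicates 1, 2 and 3. These values rest on 3 to 5 reads in the ELF4 siRNA libraries and 34 to 66 reads in the control siRNA libraries. Depth was 23770924 to 25408746 reads per ELF4 siRNA library and 23148635 to 38097986 reads per control siRNA library. Markers of adrenergic neuroblastoma, the type of this line, were abundant, and markers of other cell types moved both ways or were low. The adrenergic markers had a sum over 11 genes of 250040 to 273351 normalised reads in ELF4 siRNA libraries and 224018 to 239042 in control siRNA libraries, and 3 of them rose and 4 fell. Their median log2 fold change was -0.08, so the higher sum was not a rise of the list as a whole. CHGA, the most abundant of those that rose, averaged 104374 ± 5687 in ELF4 siRNA libraries and 71155 ± 2528 in control siRNA libraries. Among the 5 tested fibroblast markers 3 rose and 1 fell, among 4 Schwann and glial markers 1 rose and 2 fell, among 4 epithelial markers 1 rose and 2 fell, and of 2 blood markers 1 rose and 1 fell. DCN (decorin) averaged 1722 ± 58.7 normalised reads in ELF4 siRNA libraries and 968 ± 33.7 in control siRNA libraries, COL6A3 322 ± 47.1 in ELF4 siRNA libraries and 182 ± 7.78 in control siRNA libraries, and LUM 682 ± 54.5 in ELF4 siRNA libraries and 548 ± 6.93 in control siRNA libraries (SD, n = 3 each). Those 3 fibroblast genes rose with log2 fold changes of 0.83, 0.81 and 0.31, within the range of the genes described here. THY1, the one that fell, made up most of the fibroblast sum, with 4443 ± 167 in ELF4 siRNA libraries and 5376 ± 71.4 in control siRNA libraries. With THY1 included, the summed fibroblast markers overlapped between the groups. They held 6928 to 7455 normalised reads in ELF4 siRNA libraries and 7055 to 7140 in control siRNA libraries. Taken singly, DCN, COL6A3 and LUM were each higher in every ELF4 siRNA library, while PDGFRA was low and overlapped. The other sums were low: in ELF4 siRNA libraries 245 to 263 for Schwann and glial, 192 to 232 for epithelial and 31.9 to 48.3 for blood markers, and in control siRNA libraries 240 to 267, 231 to 249 and 46.8 to 53.7 for the same lists. SOX10, the defining Schwann factor, averaged 4.95 in ELF4 siRNA libraries and 2.01 in control siRNA libraries, and the part of such markers in the changes given next was not tested.

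ELF4 belongs to the ETS family, whose members bind a GGAA core. A promoter window is therefore shown here for DCX and DCLK2, which moved most of the 10 genes. Added are the DCLK1 window that holds a longer ETS motif and, for STMN1, which fell, the window that holds GGAAGT. Each window spans 250 bases before to 50 after a RefSeq start site on GRCh38.p14, printed 5′ to 3′ on the gene's strand, with every GGAA or its complement TTCC in capitals. The reads were counted on hg19, and which start sites BE-(2)-C cells use was not measured.
DCX, chrX:111412143-111412442, minus strand: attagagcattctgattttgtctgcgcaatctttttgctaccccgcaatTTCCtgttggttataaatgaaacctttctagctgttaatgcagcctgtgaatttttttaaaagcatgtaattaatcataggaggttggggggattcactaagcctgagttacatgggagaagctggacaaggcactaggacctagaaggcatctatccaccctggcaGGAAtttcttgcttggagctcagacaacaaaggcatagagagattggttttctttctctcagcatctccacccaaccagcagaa
DCLK2, chr4:150078195-150078494, plus strand: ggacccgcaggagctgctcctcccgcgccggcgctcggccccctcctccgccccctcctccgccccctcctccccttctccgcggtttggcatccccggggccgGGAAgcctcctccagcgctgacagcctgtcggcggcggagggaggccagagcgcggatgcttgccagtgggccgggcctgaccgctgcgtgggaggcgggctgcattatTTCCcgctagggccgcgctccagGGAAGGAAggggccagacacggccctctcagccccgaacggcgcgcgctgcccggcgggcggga
DCLK1, chr13:35855618-35855917, minus strand: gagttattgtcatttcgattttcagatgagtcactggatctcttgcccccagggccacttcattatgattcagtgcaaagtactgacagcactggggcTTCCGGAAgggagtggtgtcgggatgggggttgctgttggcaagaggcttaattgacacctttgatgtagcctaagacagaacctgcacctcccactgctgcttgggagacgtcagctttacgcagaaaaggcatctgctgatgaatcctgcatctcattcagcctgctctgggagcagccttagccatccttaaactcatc
STMN1, chr1:25906370-25906669, minus strand: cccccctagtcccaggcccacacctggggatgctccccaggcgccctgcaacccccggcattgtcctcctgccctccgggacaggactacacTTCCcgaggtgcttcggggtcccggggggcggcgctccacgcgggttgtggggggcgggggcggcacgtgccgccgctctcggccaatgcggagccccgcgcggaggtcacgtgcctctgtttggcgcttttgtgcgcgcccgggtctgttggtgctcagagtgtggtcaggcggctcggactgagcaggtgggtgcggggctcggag

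The windows differ in base composition. The DCX window shown is 43.0% G and C and that of DCLK1 50.7%, whereas that of DCLK2 is 76.0% and that of STMN1 72.7%, against a median of 58.7% over all 35116 windows of the reference. RefSeq windows were matched for 7 members (DCX, DCLK1, DCLK2, MAP2, MAP1B, STMN1 and STMN3), 16 windows in all, of which some overlap. GGAA on either strand was present in all 16, with 1 to 7 copies and a median of 2, but 95.5% of all windows hold it and the median over all windows is 3. The window with 7 copies was another DCX window (chrX:111411097-111411396), and the DCX window shown holds 2. The longer motif CCGGAA was found in 1 of the 16 windows, the DCLK1 window shown, and in 17.2% of all windows. GGAAGT was found in 1 window, that of STMN1, and in 22.8% of all windows, and the full CCGGAAGT, which contains both shorter motifs, in 0 of 16 and in 4.14% of all. A match describes letters in these windows only.

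After ELF4 siRNA, 8 of the 10 genes rose and 2 fell, and the median of their log2 fold changes was 0.50. Over all 20339 genes tested in the same fit, 20.7% rose and 24.4% fell, 45.1% in all, and the median log2 fold change was 0.00. These shares are not matched for abundance. In a fit of the 14947 genes that reached 50 in at least 3 libraries, 3743 rose and 4748 fell. DCX rose most, to 2.69 times its control siRNA level, and DCLK2, STMN4, MAPT, STMN2, DCLK1, MAP2 and MAP1B followed in that order. STMN1 and STMN3 fell to 0.860 and 0.932 times their control siRNA levels. The values of ELF4 siRNA and control siRNA libraries did not overlap for any of the 10. Among all genes tested 25.4% lay wholly higher and 28.2% wholly lower in ELF4 siRNA libraries, 53.6% in all. With 3 libraries against 3, an exact two-sided permutation test of a single gene cannot give less than 0.1, and it gave 0.1 for each of the 10. The adjusted p-values here therefore come from limma across all tested genes, with Benjamini-Hochberg adjustment and a threshold of 0.05. The labels do not say that the 3 libraries of a group came from separate cultures, so these p-values measure the spread between libraries, which may be technical. In such bulk RNA, more cells that express a gene and more RNA per cell cannot be told apart.

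**Figure D1:**
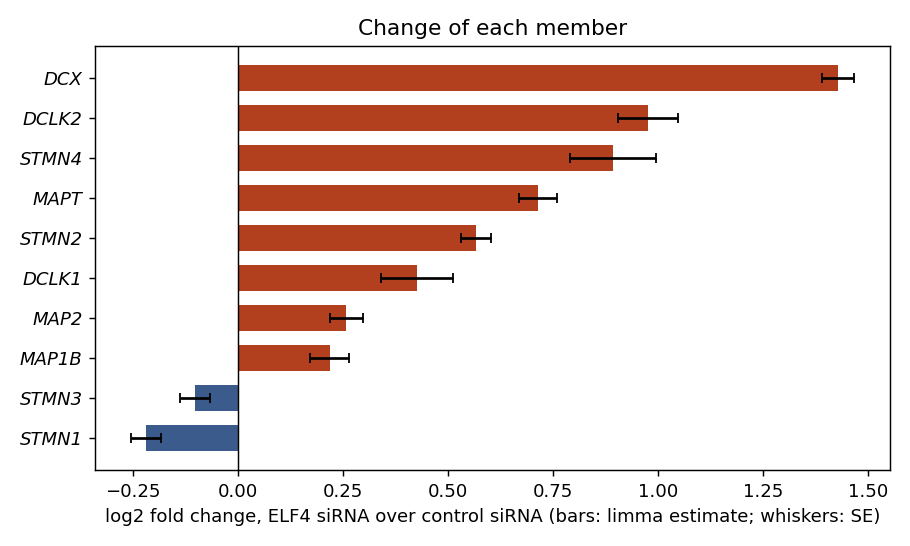
Bars give the limma log2 fold change of each gene, ELF4 siRNA over control siRNA, and whiskers its standard error (3 libraries per group). DCX stands at 1.43 and STMN1 at -0.22, with 8 bars to the right of 0 and 2 to the left.

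DCX encodes doublecortin, which binds and stiffens microtubules in migrating neurons. Its normalised read count was 6646, 6591 and 6534 in ELF4 siRNA replicates 1, 2 and 3, against 2475, 2405 and 2463 in control siRNA replicates 1, 2 and 3. The lowest ELF4 siRNA library lay 4059 normalised reads above the highest control siRNA library, and replicates of a group lay within a coefficient of variation of 0.85% (ELF4 siRNA) and 1.54% (control siRNA). The log2 fold change was 1.43 (standard error 0.04, limma adjusted p = 5.89e-11), and 100 of the 20339 tested genes had a higher one.

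DCLK2 and DCLK1 encode kinases that carry doublecortin-like domains ahead of a kinase domain, and both rose by less than DCX. DCLK2 had 606, 632 and 710 normalised reads in ELF4 siRNA replicates 1, 2 and 3, against 329, 314 and 344 in control siRNA replicates 1, 2 and 3. Every ELF4 siRNA library was far above every control siRNA library, with a log2 fold change of 0.98 (standard error 0.07, limma adjusted p = 1.14e-07), and 1.75% of tested genes changed upward at least as much. DCLK1 had 449, 420 and 514 normalised reads in ELF4 siRNA replicates 1, 2 and 3, against 348, 311 and 369 in control siRNA replicates 1, 2 and 3. Here the gap between the groups was narrow, 50.7 normalised reads, while the SD within ELF4 siRNA libraries was 48.4. DCLK1 passed with a log2 fold change of 0.43 (standard error 0.09, limma adjusted p = 0.000949). Another gene of this family, DCLK3, is counted with the structural proteins of microtubules described last.

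The doublecortin family as a sum thus reached 7701 ± 57.6 normalised reads in ELF4 siRNA libraries and 3119 ± 78.4 in control siRNA libraries (SD, n = 3 each), a ratio of 2.47. Per kilobase of annotated exon, DCX made up 80.0%, 79.5% and 77.1% of the family in ELF4 siRNA replicates 1, 2 and 3, against 71.7%, 72.4% and 70.7% in control siRNA replicates 1, 2 and 3. Its share was higher in all 3 ELF4 siRNA libraries. DCLK2 took 17.2% ± 1.23 in ELF4 siRNA libraries and 21.3% ± 0.468 in control siRNA libraries, and DCLK1 3.91% ± 0.363 in ELF4 siRNA libraries and 7.10% ± 0.439 in control siRNA libraries (SD, n = 3 each). The exact two-sided permutation test gave p = 0.1 for each of the 3 shares, the smallest possible.

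MAPT encodes tau, which binds along axonal microtubules. It had 1693, 1742 and 1725 normalised reads in ELF4 siRNA replicates 1, 2 and 3, against 1050, 1024 and 1072 in control siRNA replicates 1, 2 and 3. Both groups were tight and lay 621 normalised reads apart, and the log2 fold change was 0.71 (standard error 0.05, limma adjusted p = 3.52e-08). MAPT-AS1, annotated on the opposite strand with an end that overlaps MAPT, had 2.24 to 4.41 normalised reads in ELF4 siRNA libraries and 2.13 to 3.77 in control siRNA libraries. No strand setting is stated, so reads of the antisense RNA within MAPT exons could not be separated from MAPT.

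MAP2, the dendritic relative of tau, and MAP1B, an early protein of growing axons that is unrelated to them in sequence, were far more abundant per kilobase of exon and rose by less. MAP2 had 16177, 15803 and 15970 normalised reads in ELF4 siRNA replicates 1, 2 and 3, against 13719, 12705 and 13698 in control siRNA replicates 1, 2 and 3. MAP1B had 24456, 24149 and 27038 normalised reads in ELF4 siRNA replicates 1, 2 and 3, against 21008, 22437 and 21503 in control siRNA replicates 1, 2 and 3. For MAP2 it was control siRNA replicate 2 that lay low, and for MAP1B it was ELF4 siRNA replicate 3 that lay high, yet neither gene overlapped between groups. The log2 fold change was 0.26 (standard error 0.04, limma adjusted p = 0.000111) for MAP2 and 0.22 (standard error 0.05, limma adjusted p = 0.00145) for MAP1B. Estimates of this size were common. Called or not, 21.6% of tested genes had a log2 fold change at least as high as that of MAP2, and 24.9% as that of MAP1B.

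Within the sum of these 3 genes per kilobase of exon, the share of MAPT was 3.29%, 3.44% and 3.18% in ELF4 siRNA replicates 1, 2 and 3, against 2.41%, 2.33% and 2.43% in control siRNA replicates 1, 2 and 3. This share was higher in every ELF4 siRNA library (exact two-sided permutation p = 0.1). MAP2 held 39.6% ± 1.42 in ELF4 siRNA libraries and 39.3% ± 1.76 in control siRNA libraries, and MAP1B 57.1% ± 1.52 in ELF4 siRNA libraries and 58.3% ± 1.81 in control siRNA libraries (SD, n = 3 each). Those last shares overlapped between the groups (exact two-sided permutation p = 0.7 for MAP2 and p = 0.5 for MAP1B), and that of MAP2 changed sign without ELF4 siRNA replicate 1 (-0.221 percentage points), ELF4 siRNA replicate 2 (-0.0637) or control siRNA replicate 2 (-0.738).

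**Figure D2:**
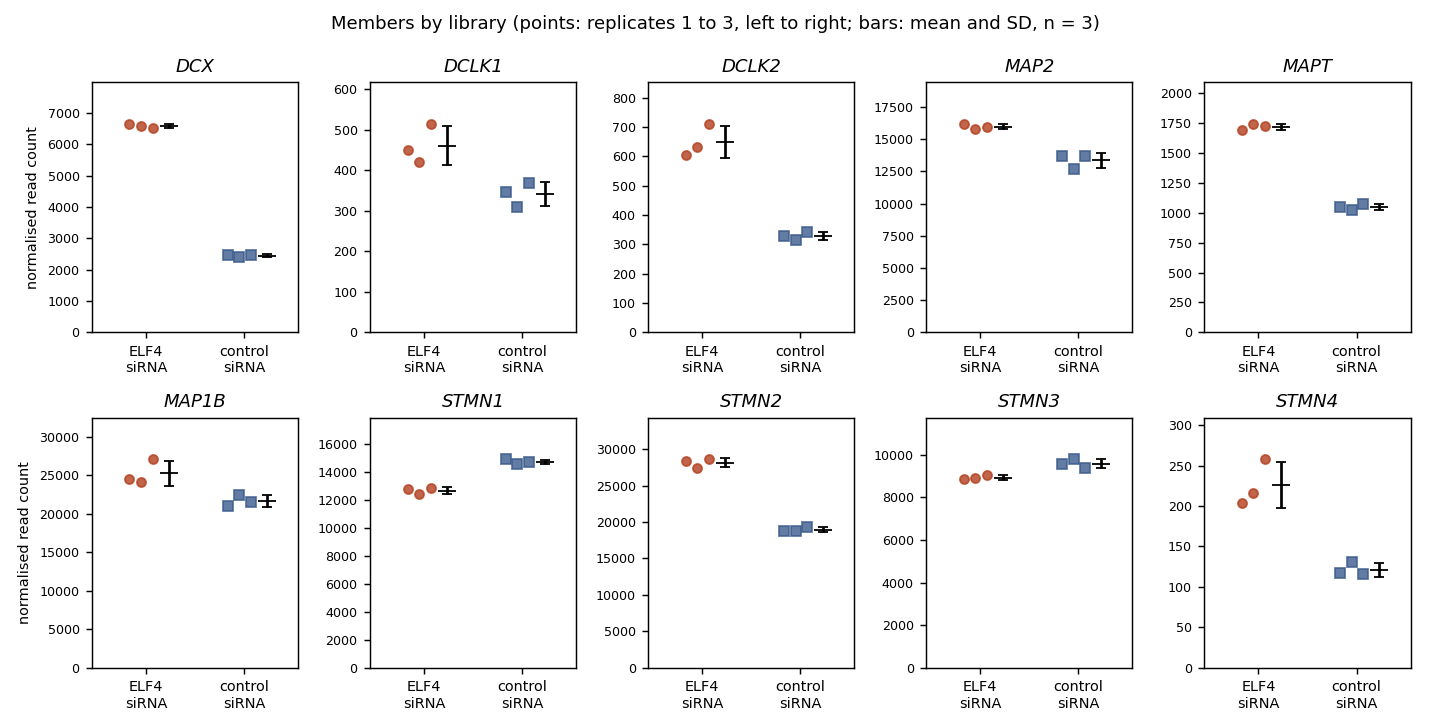
Each panel plots the normalised read count of 1 gene in the 3 ELF4 siRNA libraries (circles) and the 3 control siRNA libraries (squares), with the mean and SD beside them, on axes that start at 0. DCX libraries sit at 6534 to 6646 after ELF4 siRNA and at 2405 to 2475 after control siRNA, and no panel shows overlap between the groups.

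The stathmins moved in both directions. STMN2, also called SCG10, is the stathmin of growing axon tips, and it had 28313, 27414 and 28588 normalised reads in ELF4 siRNA replicates 1, 2 and 3, against 18759, 18785 and 19366 in control siRNA replicates 1, 2 and 3. In absolute reads this was the largest difference of the 10 genes, with 8048 normalised reads between the nearest libraries of the groups. The log2 fold change was 0.57 (standard error 0.04, limma adjusted p = 3.42e-08). STMN4, another neuronal stathmin, rests on the fewest reads of the 10 genes, with 204, 217 and 258 normalised reads in ELF4 siRNA replicates 1, 2 and 3, against 117, 130 and 115 in control siRNA replicates 1, 2 and 3. That was 185 to 249 reads per ELF4 siRNA library and 114 to 163 per control siRNA library, and ELF4 siRNA replicate 3 lay above the others of its group. STMN4 rose with a log2 fold change of 0.89 (standard error 0.10, limma adjusted p = 7.54e-06).

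STMN1, the founding stathmin, which acts on the mitotic spindle in dividing cells, had 12743, 12382 and 12858 normalised reads in ELF4 siRNA replicates 1, 2 and 3, against 14886, 14592 and 14694 in control siRNA replicates 1, 2 and 3. All 3 ELF4 siRNA libraries were lower, and the log2 fold change was -0.22 (standard error 0.04, limma adjusted p = 0.000179). Called or not, 25.4% of tested genes had a log2 fold change at least as low. GENCODE 29 lists 2 processed pseudogenes of STMN1 that have no row of their own in the table, and whether reads were shared with them was not tested. STMN3, known also as SCLIP, had 8847, 8902 and 9058 normalised reads in ELF4 siRNA replicates 1, 2 and 3, against 9582, 9785 and 9400 in control siRNA replicates 1, 2 and 3. Its groups stood only 342 normalised reads apart, and the log2 fold change was -0.10 (standard error 0.04, limma adjusted p = 0.0332). That call was lost with edgeR (adjusted p = 0.0546), with DESeq2 (adjusted p = 0.0623), with scaling to total reads (limma adjusted p = 0.0657), in limma without a trend (adjusted p = 0.118) and in limma without any single library other than ELF4 siRNA replicate 3 (adjusted p = 0.0520 to 0.112).

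The make-up of the stathmins shifted toward STMN2 in every ELF4 siRNA library. Per kilobase of annotated exon, STMN2 held 70.5%, 70.0% and 70.3% of the 4 genes in ELF4 siRNA replicates 1, 2 and 3, against 58.8%, 58.7% and 59.9% in control siRNA replicates 1, 2 and 3. STMN1 held 11.9% ± 0.0272 in ELF4 siRNA libraries and 17.3% ± 0.240 in control siRNA libraries, and STMN3 17.4% ± 0.275 in ELF4 siRNA libraries and 23.3% ± 0.585 in control siRNA libraries (SD, n = 3 each). STMN4 was the smallest part, at 0.405% ± 0.0458 in ELF4 siRNA libraries and 0.270% ± 0.0190 in control siRNA libraries. The sizes of these shares and the order of STMN1 and STMN3 depend on the length used. Per kilobase of the median coding transcript, STMN1 averaged 11136 and STMN3 3880 in ELF4 siRNA libraries. In control siRNA libraries they averaged 12950 and 4164. The ratio of STMN2 to STMN1 reads, which does not depend on how a library was scaled, was 2.22, 2.21 and 2.22 in ELF4 siRNA replicates 1, 2 and 3, against 1.26, 1.29 and 1.32 in control siRNA replicates 1, 2 and 3. The exact two-sided permutation test gave p = 0.1 for this ratio and for each stathmin share. Summed over the 4 genes, normalised reads were 49928 ± 936 in ELF4 siRNA libraries and 43404 ± 150 in control siRNA libraries (SD, n = 3 each), a ratio of 1.15.

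**Figure D3:**
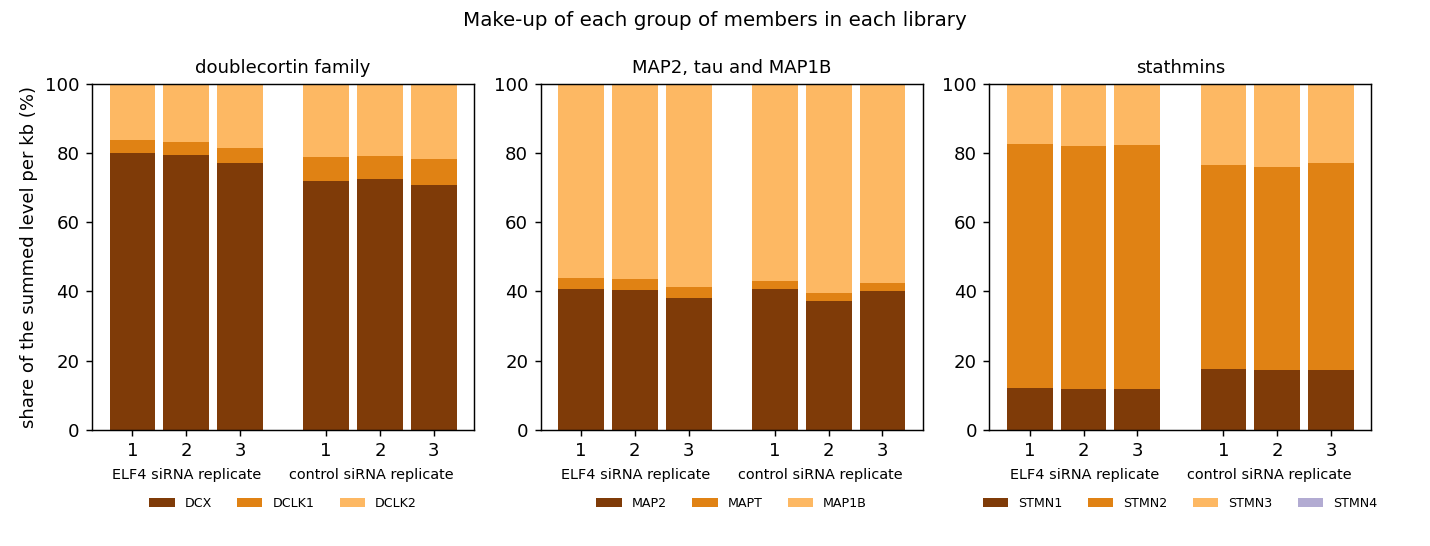
Stacked bars give the share (percent) of each gene in the level per kilobase of exon summed over its group, for the 3 ELF4 siRNA and the 3 control siRNA libraries. DCX and STMN2 take more of their sums in ELF4 siRNA libraries (78.9% and 70.3% on average) than in control siRNA libraries (71.6% and 59.1%), and STMN4 is too small to see.

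ELF4 siRNA replicate 3 held the highest ELF4 siRNA value for 7 of the 10 genes, and replicate 1 for 2 of them. The same count was not made over all tested genes, so whether this is particular to the 10 was not tested. The spread was not the same for all genes: the coefficient of variation within a group ran between 0.85% for DCX after ELF4 siRNA and 12.5% for STMN4 after ELF4 siRNA. Without ELF4 siRNA replicate 3 all 10 calls stood, with log2 fold changes of 1.43 for DCX and 0.80 for STMN4.

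Levels of different genes can be set side by side only per length of RNA, and the length chosen decides part of the order. Per kilobase of all annotated exons in GENCODE 29, STMN2 was highest, at 11899 ± 260 in ELF4 siRNA libraries and 8031 ± 145 in control siRNA libraries. STMN3 (2947 ± 36.1 in ELF4 siRNA, 3163 ± 63.6 in control siRNA) and STMN1 (2022 ± 39.7 in ELF4 siRNA, 2352 ± 23.8 in control siRNA) followed. Next were MAP1B (1996 ± 126 in ELF4 siRNA, 1714 ± 57.4 in control siRNA) and MAP2 (1383 ± 16.2 in ELF4 siRNA, 1157 ± 50.1 in control siRNA), each as the mean ± SD over 3 libraries. DCX came next with 646 ± 5.49 in ELF4 siRNA libraries and 240 ± 3.70 in control siRNA libraries. The 4 lowest were DCLK2 (141 ± 11.8 in ELF4 siRNA, 71.4 ± 3.19 in control siRNA), MAPT (115 ± 1.67 in ELF4 siRNA, 70.3 ± 1.64 in control siRNA), STMN4 (68.6 ± 8.55 in ELF4 siRNA, 36.7 ± 2.48 in control siRNA) and DCLK1 (32.1 ± 3.37 in ELF4 siRNA, 23.8 ± 2.05 in control siRNA). This order was the same in both groups, but STMN1 and MAP1B overlapped over ELF4 siRNA libraries, and DCLK2 and MAPT overlapped over control siRNA libraries. Divided by the length of the median coding transcript instead, a setting chosen after the data were seen, STMN1 (11136 ± 219 in ELF4 siRNA libraries, 12950 ± 131 in control siRNA libraries) moved above STMN3 (3880 ± 47.6 in ELF4 siRNA, 4164 ± 83.8 in control siRNA). MAP2 then moved above MAP1B and MAPT above DCLK2, while STMN2 remained first, DCX sixth and DCLK1 last.

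**Figure D4:**
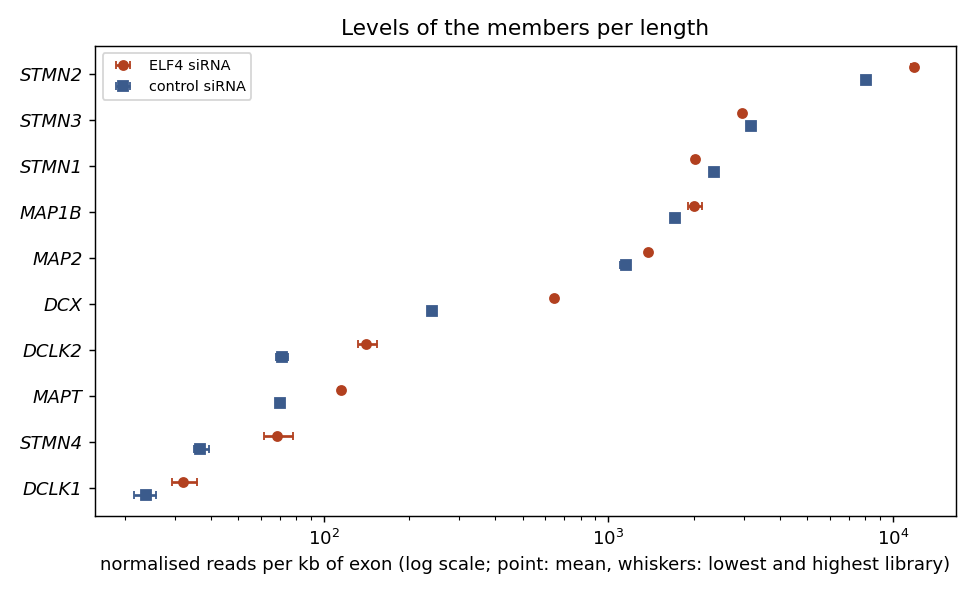
Points give mean normalised reads per kilobase of annotated exon on a log scale, with whiskers from the lowest to the highest of 3 libraries, for ELF4 siRNA (circles) and control siRNA (squares). STMN2 is highest in both groups, at 11899 after ELF4 siRNA and 8031 after control siRNA, and DCLK1 lowest, at 32.1 after ELF4 siRNA and 23.8 after control siRNA.

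The genes whose values followed those of DCX most closely over the 6 libraries were ranked by the distance between log2 values, each gene centred on its own mean, among 13055 other genes with a mean of at least 100. The nearest were CDH18, a cadherin (distance 0.15), VLDLR, a reelin receptor (0.17), SEZ6L, a neuronal transmembrane protein (0.18), ARHGAP36 (0.18) and CACNA1B, the pore of the N-type calcium channel (0.21). CDH18 had 354, 336 and 334 normalised reads in ELF4 siRNA replicates 1, 2 and 3, against 124, 134 and 137 in control siRNA replicates 1, 2 and 3. The log2 fold changes of these 5 genes were 1.31 to 1.43, and with 2 groups the measure mostly finds genes with a fold change like that of DCX. Of the other 9 genes described here, DCLK2 was the closest to DCX (0.59, rank 82), and STMN4 (0.73, rank 124) and MAPT (0.88, rank 242) followed.

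The 7-mers ACCTGTC and CCTGTCA came from an earlier search of these data for words frequent in genes that fell. In the longest 3′ UTR of each gene in GENCODE 29, DCX and MAP1B carry both 7-mers, and the other 8 genes carry neither. That is 2 of 10, where 21.3% of 9917 genes with a mean of at least 100 carry 1 or both. These shares are not matched for length, since the median 3′ UTR was 2677 bases in the 10 genes and 1488 in the 9917. Neither carrier fell, and STMN1 and STMN3, which did, are among the 8 without. Since the 7-mers were picked on these same fold changes, this is a description.

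Other genes of the microtubule system moved both ways. In 6 lists that hold 98 genes, 95 were tested, of which 31 (32.6%) rose, 30 (31.6%) fell and 34 stayed short of the threshold. Their median log2 fold change was 0.06. Over all tested genes, not matched for abundance, 20.7% rose and 24.4% fell. No gene of these lists rose as much as DCX or DCLK2. Whether the lists differ from the 10 was not tested.

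Among 19 tested structural proteins of microtubules, 6 rose, 4 fell and 9 did not pass. DST, a spectraplakin that links microtubules to other filaments, averaged 9245 ± 1033 normalised reads in ELF4 siRNA libraries and 5284 ± 642 in control siRNA libraries (log2 fold change 0.81), and MAP7, which recruits kinesin, rose with 0.67. MAP1LC3A, related to the light chain of MAP1 proteins and used in autophagy, fell (-0.54), as did TPPP3, a tubulin polymerisation protein that also occurs in a row of joined gene names (-0.51). DCLK3 averaged under 100 normalised reads, with 73.8, 76.3 and 61.1 in ELF4 siRNA replicates 1, 2 and 3, against 62.2, 65.1 and 73.7 in control siRNA replicates 1, 2 and 3, and the groups overlapped.

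Of 18 proteins at microtubule ends or linked to dynein, 6 rose, 5 fell and 7 did not pass. CLASP2, which promotes rescue of growing ends, rose (2134 ± 167 in ELF4 siRNA libraries and 1518 ± 96.5 in control siRNA libraries, log2 fold change 0.49), and so did MAPRE2, an end-binding protein (0.40). CAMSAP1 and CAMSAP2, which cap free minus ends, fell with -0.67 and -0.53. CAMSAP1 averaged 2382 ± 39.1 normalised reads in ELF4 siRNA libraries and 3790 ± 7.01 in control siRNA libraries (SD, n = 3 each). Among 7 severing enzymes 4 fell and limma called 0 as risen, with 1 rise at an unadjusted p under 0.05. EdgeR also called 0 risen (1 at an unadjusted p under 0.05) and DESeq2 0 (0 unadjusted). Without ELF4 siRNA replicate 1, limma called 1 rise. The 4 falls became 2 without control siRNA replicate 1 and 2 in limma without a trend. FIGN, or fidgetin, fell most in that list (-0.79, 485 ± 48.2 in ELF4 siRNA libraries and 839 ± 50.2 in control siRNA libraries), followed by FIGNL1 (-0.36).

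The list of kinases that phosphorylate these proteins was divided, with 9 of 21 genes risen, 6 fallen and 6 that did not pass. It also holds CDK5R1, CDK5R2 and MAPK8IP1, which encode partners of kinases and not kinases. CDK5 itself, added after its value was seen, fell (log2 fold change -0.52, limma adjusted p = 8.05e-06). It averaged 557 ± 30.9 normalised reads in ELF4 siRNA libraries and 796 ± 26.3 in control siRNA libraries. CDK5 needs a p35 or p39 activator, and the genes of these activators moved apart. CDK5R1, which encodes p35, averaged 129 ± 14.3 normalised reads in ELF4 siRNA libraries and 273 ± 7.37 in control siRNA libraries (log2 fold change -1.07, limma adjusted p = 4.94e-07). CDK5R2, which encodes p39, averaged 2285 ± 51.2 in ELF4 siRNA libraries and 1411 ± 91.0 in control siRNA libraries (log2 fold change 0.70, limma adjusted p = 1.46e-07). TTBK1, a tau kinase of neurons, rose (0.72), and MAPK9, or JNK2, fell (-0.54).

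Among 17 tested tubulin modifying enzymes 5 rose, 5 fell and 7 stayed short of the threshold. TTLL7 and TTLL11, which add glutamate chains to tubulin, rose with 0.63 and 0.47. VASH2, which removes the terminal tyrosine of alpha-tubulin, fell (-0.63), and AGTPBP1, which trims glutamate chains, fell (-0.27). Among 13 axonal kinesin genes 5 rose, 6 fell and 2 did not pass. KIF5A and KIF5C, neuronal heavy chains of conventional kinesin, rose with 0.71 and 0.45, while KIF3B (-0.47) and the light chain gene KLC2 (-0.37) fell. The deepest fall in all 6 lists, that of the neuronal kinesin KIF21B (22.2 ± 5.25 in ELF4 siRNA libraries, 88.3 ± 7.21 in control siRNA libraries, log2 fold change -1.97), was picked out after its value was seen, since its mean lies under 100.

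**Figure D5:**
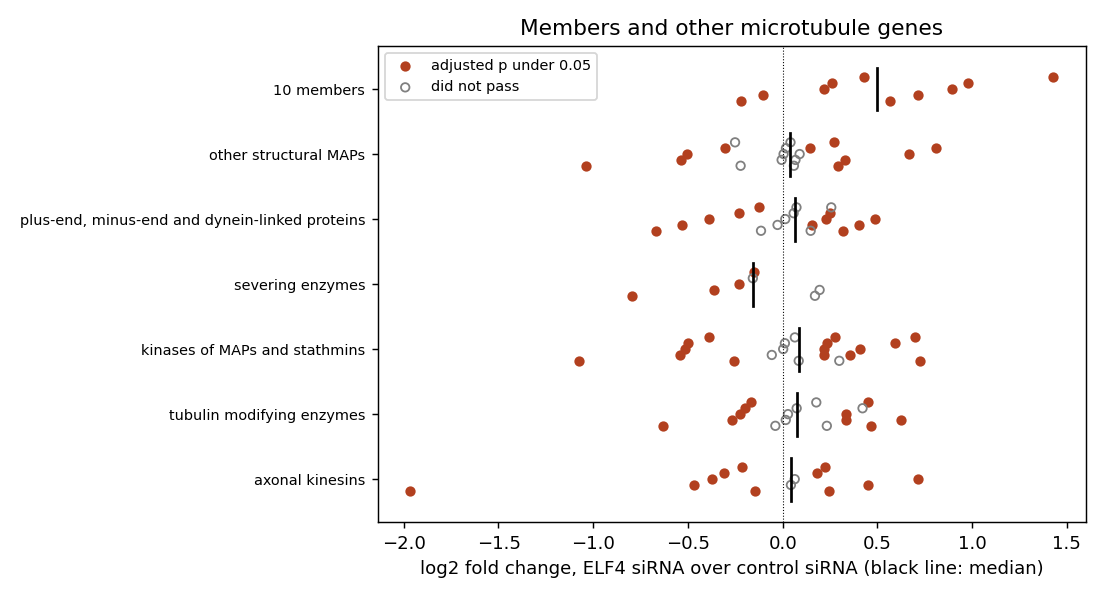
Each point is the log2 fold change of 1 tested gene, ELF4 siRNA over control siRNA, for the 10 genes described here and for 6 lists of other microtubule genes. Filled points passed an adjusted p under 0.05, open points did not, and black lines are medians. The median of the 10 is 0.50, and those of the lists lie between -0.16 and 0.08.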

How the data were processed

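The deposited table gives a signal per gene that is a normalised read count, made by the authors as read counts divided by 1 size factor per library. The submitters' processing notes name hg19, TopHat, featureCounts and DESeq2. Their versions, roles and filters, the annotation and the strand setting are not given in the texts used here. Within a tolerance of 0.001, 100% of values were whole multiples of 1 read, so reads were recovered for all 6 libraries. Replicates of a group differed by more than sampling noise (chi-square per degree of freedom 2.09 to 5.91), so all were used.

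The main test was limma with a trend on log2(value + 1), for genes that reached 10 in at least 3 libraries, ELF4 siRNA against control siRNA, with no covariate and a threshold of 0.05 on the Benjamini-Hochberg adjusted p. Fold changes are on that scale and understate those of genes with few reads. Exon lengths and 3′ UTRs came from GENCODE 29 and promoters from RefSeq, both on GRCh38. The genes, lists and tests were chosen with earlier results of these data known. Named were ELF4, the 10 genes, the up to 2 largest called rises and falls of each microtubule list whose higher group averaged at least 100, and the 5 genes closest to DCX. Of the 98 microtubule genes listed, 97 matched a row by symbol, and 95 were tested. Alternatives changed the pseudocount, the filter, the scaling, the trend and the tool (edgeR, DESeq2), added a replicate block or left out each library. Tools were Python 3.11.15 with pandas 2.3.3, scipy 1.17.1, numpy 2.4.6 and matplotlib 3.10.9, and R 4.3.3 with DESeq2 1.42.0, edgeR 4.0.16 and limma 3.58.1.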

Additional observations from a re-analysis of the deposited data

How the results depend on the processing

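All 8 rises among the 10 genes and the fall of STMN1 kept their direction and their side of the threshold under every alternative. So did ELF4, the genes named by rule from the microtubule lists and the 5 genes closest to DCX, where an alternative gave a value. Alternatives are not given for KIF21B, DCLK3, CDK5 or the cell type markers. The number of the 10 genes that fell was 1 in place of 2 with scaling to total reads, limma without a trend, edgeR and DESeq2, and 1 to 2 when single libraries were left out. STMN3 was the gene lost. Its log2 fold change was -0.0896 with scaling to total reads, -0.0915 with edgeR, -0.0910 with DESeq2 and -0.10 without a trend. Leaving out single libraries gave -0.116 to -0.0870, with a highest adjusted p of 0.118 over all its alternatives. The cause was not tested. For shares within a family, in percentage points of ELF4 siRNA minus control siRNA, values not divided by length gave -4.98 for DCLK1, -2.11 for DCLK2, 1.10 for MAPT, -8.56 for STMN1, 12.6 for STMN2, -4.19 for STMN3 and 0.17 for STMN4. Per kb of the median coding transcript they were -4.64 for DCLK1, 2.12 for MAPT, -9.52 for STMN1, 11.9 for STMN2 and -2.46 for STMN3, and that of MAP2 changed sign (-0.630). The share of MAP2 ranged over -0.738 to 1.08 with single libraries left out, with -0.221, -0.0637 and -0.738 as the values below 0. In the first 2 of these settings only the divisor differs.

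No member occurs in a joined row, so adding joined rows gave no value. Replicate numbers were not treated as pairs in the main test. Correlations of same-numbered deviations were 0.04, 0.26 and 0.13, against -0.28 to 0.15 for other pairs. These ranges overlap and do not settle whether the libraries were paired. Adding the replicate block gave 4564 rises and 5346 falls over all genes, against 4217 and 4956 without it. It called 1 severing enzyme as risen, against 0 without it, and the calls of the 10 genes were 8 rises and 2 falls again. Depth limits the precision of ELF4, at 3 to 5 reads per ELF4 siRNA library.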
